A study of Rattus norvegicus with 22 samples.

Results

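The 8 cortical neuropeptide genes described here are Cck, Sst, Penk, Vip, Tac1, Pdyn, Crh and Npy, taken by their Ensembl IDs from 29663 genes listed for the prefrontal cortex. The rule names them by ID and uses no measured value, although it was written with earlier results of these data known. In that order the IDs are ENSRNOG00000019321, ENSRNOG00000001837, ENSRNOG00000008943, ENSRNOG00000018808, ENSRNOG00000007374, ENSRNOG00000026036, ENSRNOG00000012703 and ENSRNOG00000046449. All 8 passed the filter on low values (at least 1 FPKM in at least 3 libraries), which kept 15326 genes. FPKM is a gene's reads scaled to its length and to the library's total, so that genes of different length and libraries of different depth share a scale. It does not adjust for differences in the RNA makeup of libraries, and rescaled and quantile normalized values were used as alternatives. The rats were male Sprague-Dawley, and per the series' title the study asked how exposure to a cannabinoid in adolescence alters the first response to cocaine. RNA of the prefrontal cortex was sequenced in 12 libraries, with 3 each from rats given WIN (the study's cannabinoid) with cocaine, rats given cocaine, rats given WIN, and control rats. The labels of these libraries give no dose, no ages in days, no interval between WIN and cocaine and no vehicle. Titles of the nucleus accumbens cocaine libraries hold SAL/COC, without spelling it out. The labels do not say whether each library is 1 animal or a pool, so p-values measure the spread between these libraries, which may be technical.

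Neuropeptides are made as longer precursors, cut to size in the secretory pathway, stored in dense-core vesicles and released to act on G protein-coupled receptors. In the cortex most of these genes are used as marks of inhibitory interneuron classes. Sst, Vip and Npy mark interneurons, Crh is found in several of their subclasses, and Cck is expressed in pyramidal cells as well as in a class of basket cells. Penk and Pdyn encode the precursors of the enkephalin and dynorphin opioid peptides, and Tac1 encodes the precursor of substance P. Transcription of several such genes responds to cyclic AMP through CREB, a factor that binds the cAMP response element TGACGTCA or its shorter core TGACG.

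The proximal promoters are shown for the members in which that element was found, since it is the control sequence for which the family is best known. Promoters of 5 of the 8 genes (Sst, Npy, Vip, Tac1 and Pdyn) were in the RefSeq promoter table, which is on GRCr8, and Penk, Cck and Crh had no entry. Each sequence runs 5′ to 3′ on the plus strand from 250 bases before the annotated start to 25 bases after it, and capitals mark the match. Both motifs were searched on both strands over 300 bases (250 before and 50 after the start). TGACG lies within TGACGTCA, so every match of the longer motif is also a match of the shorter. The full element lies at bases 3 to 10 after the annotated start of Sst. The core lies at bases -97 to -93 before the start of Vip. On the opposite strand, read as CGTCA, the core lies at bases -206 to -202 of Tac1. Whether transcription begins at these annotated starts was not examined, so the Sst element may not lie in transcribed sequence.
Sst, chr11:90461296-90461570: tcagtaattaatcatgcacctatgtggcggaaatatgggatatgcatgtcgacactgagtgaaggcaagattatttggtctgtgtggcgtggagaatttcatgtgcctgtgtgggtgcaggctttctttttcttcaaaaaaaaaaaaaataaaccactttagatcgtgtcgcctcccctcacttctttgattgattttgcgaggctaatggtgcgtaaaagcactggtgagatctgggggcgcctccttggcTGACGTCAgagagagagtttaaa
Vip, chr1:44470230-44470504: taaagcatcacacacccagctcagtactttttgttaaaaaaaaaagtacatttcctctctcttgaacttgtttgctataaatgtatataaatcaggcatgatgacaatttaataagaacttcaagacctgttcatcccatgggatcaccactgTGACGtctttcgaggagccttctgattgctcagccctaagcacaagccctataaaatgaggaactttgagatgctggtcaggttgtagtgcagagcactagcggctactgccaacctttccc
Tac1, chr4:36645333-36645607: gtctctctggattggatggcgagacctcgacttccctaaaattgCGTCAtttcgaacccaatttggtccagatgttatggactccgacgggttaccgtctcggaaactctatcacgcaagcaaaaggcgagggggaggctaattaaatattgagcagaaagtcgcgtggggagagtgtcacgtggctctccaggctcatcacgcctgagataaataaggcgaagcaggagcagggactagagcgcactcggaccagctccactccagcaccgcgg
Neither motif was found in the windows of Npy and Pdyn. Of the 33469 promoters in the table, 1.83% held TGACGTCA and 21.2% held TGACG, so a match of the core in Vip or Tac1 is common among promoters of this length. These matches describe letters only and were not tied to any value below.

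The levels differed widely between the 8 genes, from a mean over the 12 libraries of 1065 ± 116 FPKM for Cck to 4.94 ± 0.804 FPKM for Crh and a median of 1.59 FPKM for the Npy ID, and their order was nearly fixed. From highest to lowest it was Cck, Sst, Penk, Vip, Tac1, Pdyn, Crh and Npy in 9 of the 12 libraries. The other libraries were control replicates 1 and 3, where the Npy ID stood higher, and cocaine replicate 2, where Crh stood above Pdyn. Cck made up 65.8% to 71.5% of the summed FPKM of the 8 genes and Sst 23.9% to 28.3%, so the other 6 together were a small part of the peptide precursor RNA measured here. Vip exceeded Tac1 in each library although their ranges overlapped, with 14.8 to 22.6 FPKM for Vip and 9.60 to 15.7 FPKM for Tac1. Pdyn and Crh are the neighbours that their spread does not separate among the libraries of cocaine-treated rats, where Pdyn averaged 6.53 ± 0.472 FPKM and Crh 6.04 ± 0.729 FPKM (SD, n = 3 each).

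**Figure D1:**
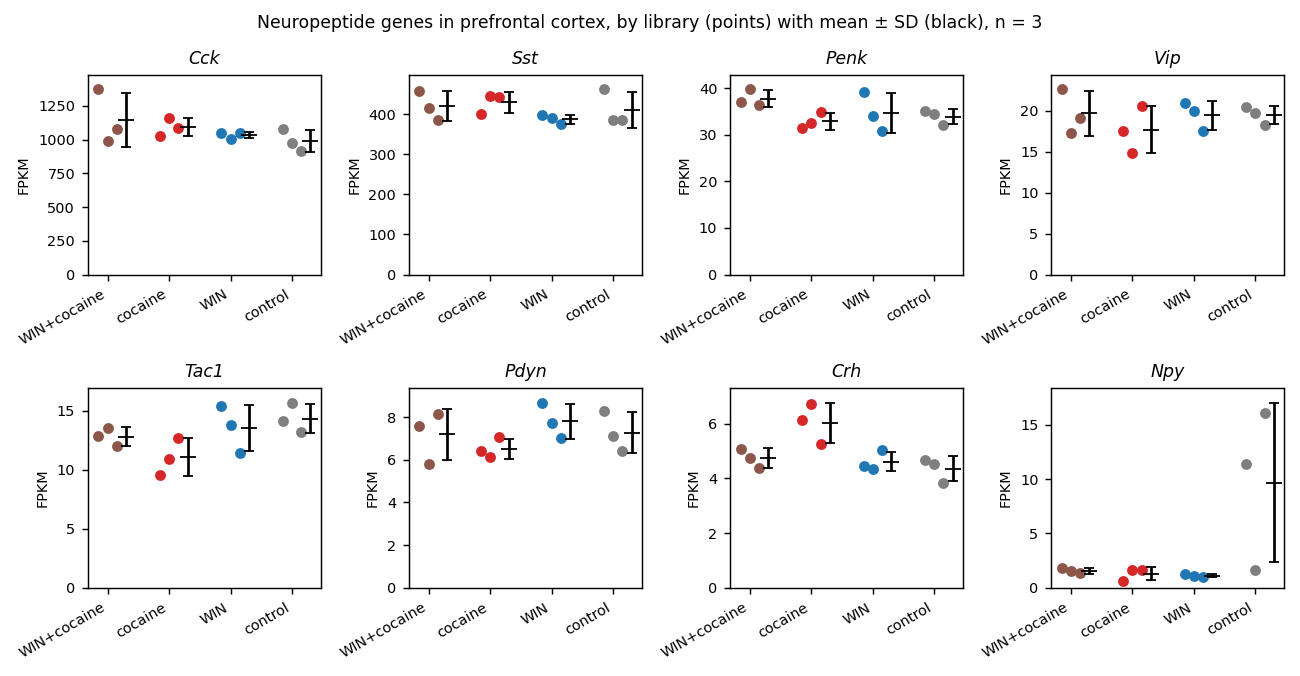
FPKM of each neuropeptide gene in each library (points, replicates 1 to 3 from left to right) with the group mean and SD (black, n = 3), on a linear axis from 0 for each gene. The 3 Crh values of cocaine-treated rats, 5.27 to 6.72 FPKM, lie above the other 9, and the Npy values of control replicates 1 and 3 lie far above the other 10.

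The libraries held 20853971 to 27679012 reads assigned to genes, as recovered from the steps of the FPKM values, and each had 14589 to 14932 genes at 1 FPKM or more. Reads behind the members ran from 14282 to 26109 per library for Cck down to 113 to 188 for Crh and 7 to 194 for the Npy ID. The library of WIN replicate 3 stood apart, with the lowest weight (0.296, where the others lie between 0.652 and 2.25) when limma estimated how well each library follows its group. The files pair no symbols with IDs, so the names of all 8 genes rest on how they were chosen, and markers of the tissue and of other cell types were not analysed here. In bulk tissue fewer cells of a type and less RNA per cell cannot be told apart.

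Cck, which encodes the peptide cholecystokinin, had 1372, 993.0 and 1076 FPKM in rats given WIN with cocaine, 1025, 1163 and 1088 FPKM in cocaine-treated rats, 1048, 1006 and 1047 FPKM in WIN-treated rats, and 1078, 975.6 and 912.8 FPKM in control rats. The groups overlapped, and the highest value was replicate 1 of WIN with cocaine. Sst, which encodes somatostatin, the inhibitory peptide of dendrite-targeting interneurons, had 459.0, 416.2 and 385.8 FPKM in rats given WIN with cocaine, 399.4, 446.5 and 443.4 FPKM in cocaine-treated rats, 397.6, 390.2 and 374.8 FPKM in WIN-treated rats, and 461.9, 384.7 and 384.3 FPKM in control rats. The WIN values lay just below the cocaine values, a pair of groups that no comparison sets against each other, and the other groups overlapped. How many of all genes are separate between the WIN and cocaine groups was not counted. Its highest value over all libraries was only 1.23 times its lowest, the narrowest range of the 8 genes.

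The opioid precursors and the tachykinin precursor stood at intermediate levels. Penk had 37.1, 39.8 and 36.4 FPKM in rats given WIN with cocaine, 31.4, 32.5 and 34.8 FPKM in cocaine-treated rats, 39.3, 34.1 and 30.8 FPKM in WIN-treated rats, and 35.1, 34.5 and 32.2 FPKM in control rats. The values after WIN with cocaine lay above all 6 values of the cocaine and control groups, while the WIN group alone spread over nearly the whole range. WIN with cocaine did not overlap cocaine in 18% of all genes, nor control in 19.6%. The share of genes with both was not counted. Pdyn had 7.59, 5.82 and 8.15 FPKM in rats given WIN with cocaine, 6.39, 6.14 and 7.05 FPKM in cocaine-treated rats, 8.68, 7.71 and 7.02 FPKM in WIN-treated rats, and 8.30, 7.10 and 6.39 FPKM in control rats, with overlap between every pair of groups. Tac1 had 12.9, 13.6 and 12.04 FPKM in rats given WIN with cocaine, 9.60, 10.9 and 12.7 FPKM in cocaine-treated rats, 15.4, 13.8 and 11.4 FPKM in WIN-treated rats, and 14.1, 15.7 and 13.2 FPKM in control rats. All 3 Tac1 values of the cocaine group lay below all 3 of the control group, and these groups did not overlap in 40% of all genes.

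Of the other interneuron peptides, Vip, which marks interneurons that target other interneurons, had 22.6, 17.3 and 19.0 FPKM in rats given WIN with cocaine, 17.6, 14.8 and 20.6 FPKM in cocaine-treated rats, 20.9, 19.9 and 17.5 FPKM in WIN-treated rats, and 20.4, 19.7 and 18.3 FPKM in control rats. No pair of groups was separate for Vip. Crh, which encodes corticotropin-releasing hormone, a stress peptide that acts locally in the cortex as well as in the hypothalamus, had 5.09, 4.77 and 4.36 FPKM in rats given WIN with cocaine, 6.14, 6.72 and 5.27 FPKM in cocaine-treated rats, 4.47, 4.36 and 5.03 FPKM in WIN-treated rats, and 4.69, 4.53 and 3.84 FPKM in control rats. Crh was the member whose 3 cocaine values all exceeded the other 9 libraries, an arrangement found in 384 of the 15326 genes tested, or 2.51%. The within-group spread of Crh was close to what counting 113 to 188 reads gives. Its chi-square per degree of freedom was 1.45 over 8 degrees of freedom, against 4.15 for Tac1 and 204 for Cck. At the same relative spread that value grows with the number of reads. The SD of log2(FPKM + 1) around the group means was 0.12 for Crh, 0.15 for Tac1 and 0.14 for Cck.

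The Npy ID, for neuropeptide Y, behaved unlike the other members. It had 1.82, 1.55 and 1.32 FPKM in rats given WIN with cocaine, 0.647, 1.65 and 1.64 FPKM in cocaine-treated rats, 1.24, 1.12 and 1.04 FPKM in WIN-treated rats, and 11.4, 1.64 and 16.0 FPKM in control rats. These values rest on 23, 16 and 16 reads after WIN with cocaine, 7, 18 and 20 reads after cocaine, 16, 14 and 12 reads after WIN, and 125, 16 and 194 reads in control rats. Control replicate 2 was thus at the level of the treated rats, while control replicates 1 and 3 were 6.93 and 9.76 times as high as control replicate 2. Among 14222 genes with at least 1 FPKM in both of those libraries, this was the only gene in which both exceeded the highest of the other 10 libraries by more than 2-fold, and it still was at 5-fold. A gene with such an excess at 5-fold was found for 12 of the 66 possible pairs of libraries, 1 gene in each, so an isolated excess in a pair of libraries is not particular to these controls. This arrangement was looked for after its values were seen. Npy is known as an abundant transcript of cortical interneurons, and levels near 1 FPKM are low for it. The values are therefore given as those of the ID.

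**Figure D2:**
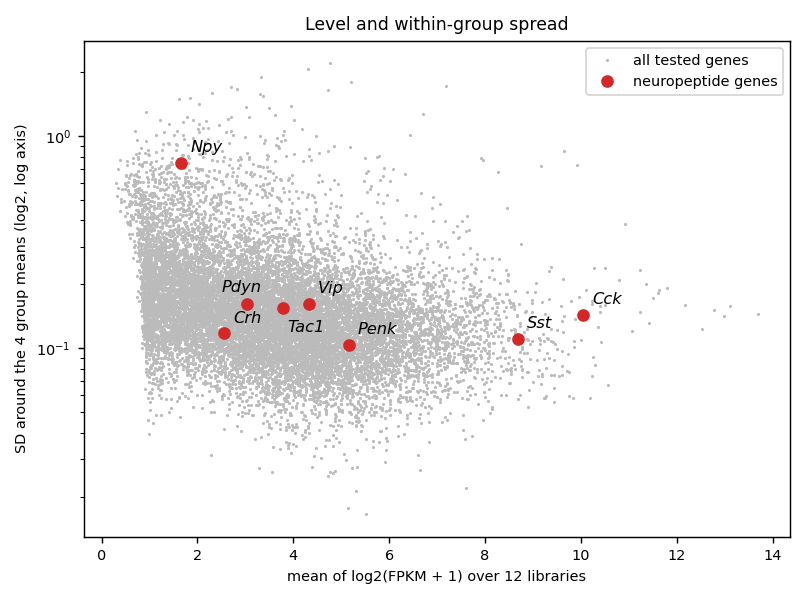
Mean of log2(FPKM + 1) over the 12 libraries (horizontal) against the residual SD around the 4 group means (vertical, log axis) for the 15326 genes tested (grey) and the 8 neuropeptide genes (red). The Npy ID has an SD of 0.75, higher than that of 99.1% of the genes, and the other 7 lie between 0.10 and 0.16, around the median of 0.14.

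Between libraries of the same group the spread of the other 7 genes lay around the median of all genes tested, whatever the level of those genes. Their residual SD on the log2(FPKM + 1) scale ran from 0.10 for Penk to 0.16 for Vip, against a median of 0.14 over all genes tested. Penk, Sst and Crh lay at the 24.1, 28.5 and 33.5 percentiles of all genes, and Cck, Tac1, Pdyn and Vip at the 51, 57.4, 61 and 61.7 percentiles. The percentiles do not take level into account. Cck and Sst had higher means than 99.8% and 99.1% of the genes tested, and their spread was not ranked among genes of a like level.

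Cocaine alone was set against control to describe the response without WIN, and differences were tested with limma on log2(FPKM + 1) over all 15326 genes, with the 12 libraries sharing an estimate of the spread. None of the 8 genes passed an adjusted p of 0.05 (Benjamini-Hochberg over all genes), and neither did any other gene (0% called, smallest adjusted p 0.0596). At an unadjusted p of 0.05, 3 members passed, where 31.1% of all genes did, so this share is near the background. They were Crh, with a log2 difference of 0.39 (SE 0.10, 95% interval 0.17 to 0.62, limma adjusted p = 0.0611), Tac1, with -0.35 (SE 0.12, interval -0.61 to -0.09, adjusted p = 0.0837), and the Npy ID, with -1.87 (SE 0.51, adjusted p = 0.0624). Crh averaged 6.04 ± 0.729 FPKM in the cocaine group and 4.35 ± 0.453 FPKM in the control group, and Tac1 11.1 ± 1.58 FPKM in the cocaine group and 14.3 ± 1.26 FPKM in the control group (SD, n = 3 each). The cocaine and control values did not overlap for Crh and Tac1, as in 40% of all genes. For the other 5 members the log2 differences lay between -0.14 (Vip) and 0.14 (Cck). Their intervals, such as -0.13 to 0.27 for Sst, -0.41 to 0.13 for Vip and -0.10 to 0.39 for Cck, do not show that these genes kept their level. The median over the 8 genes was -0.09, against -0.02 over all genes. Calls in this comparison depended on which libraries entered the fit and on their weights. With the spread estimated from the cocaine and control libraries alone, 1378 genes passed and none of the 8 did. Without WIN replicate 3, which enters only through the shared spread, Crh, Tac1 and the Npy ID passed (adjusted p = 0.0277, 0.0410 and 0.0395), as did 2772 genes in all. With library weights estimated by limma, Crh and the Npy ID passed (adjusted p = 0.0333 and 0.0331), as did 2083 genes in all. Without control replicate 2 only the Npy ID passed (adjusted p = 0.00146).

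WIN alone was set against control to describe the levels after WIN without cocaine. Apart from the Npy ID, the members' log2 differences were small, from -0.08 for Tac1 and Sst to 0.09 for Pdyn. None of the 8 genes was called by limma (0% of all genes called), and at an unadjusted p of 0.05 the Npy ID passed, where 1.55% of all genes did, with a log2 difference of -1.95 (SE 0.51, adjusted p = 0.999, and 0.00108 without control replicate 2). The Npy ID was also the member whose WIN values did not overlap the control values, as in 5.93% of all genes. Crh averaged 4.62 ± 0.362 FPKM in the WIN group and 4.35 ± 0.453 FPKM in the control group (SD, n = 3 each), with a log2 difference of 0.07 (95% interval -0.16 to 0.30).

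Rats given WIN with cocaine were compared with rats given cocaine to see whether earlier WIN altered the levels under cocaine. All 3 Crh values of the WIN with cocaine group lay below all 3 of the cocaine group, averaging 4.74 ± 0.364 FPKM in the WIN with cocaine group and 6.04 ± 0.729 FPKM in the cocaine group, and all 3 Penk values lay above, averaging 37.8 ± 1.77 FPKM in the WIN with cocaine group and 32.9 ± 1.75 FPKM in the cocaine group (SD, n = 3 each). Neither passed the adjusted threshold in limma, and no gene did (0% called, smallest adjusted p 0.468). The log2 difference was -0.29 for Crh (SE 0.10, 95% interval -0.52 to -0.06, adjusted p = 0.468) and 0.19 for Penk (SE 0.09, interval 0.0043 to 0.38, adjusted p = 0.468). These were the 2 members at an unadjusted p under 0.05, where 10.6% of all genes were, and the 2 whose groups did not overlap, where 18% of all genes did not. Tac1 had a log2 difference of 0.20 (95% interval -0.06 to 0.46), and the remaining members lay between -0.03 for Sst and 0.18 for the Npy ID. The comparison shares the cocaine libraries with that of cocaine against control, so the opposite signs of Crh in both are not independent.

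Set against WIN alone, WIN with cocaine took none of the 8 genes past an unadjusted p of 0.05 in limma, where 3.76% of all genes passed, and no gene was called after adjustment (0%). Crh averaged 4.74 ± 0.364 FPKM in the WIN with cocaine group and 4.62 ± 0.362 FPKM in the WIN group (SD, n = 3 each), a log2 difference of 0.03 (95% interval -0.20 to 0.26). Tac1 had a log2 difference of -0.07 (interval -0.33 to 0.19) and Cck of 0.14 (interval -0.11 to 0.38). The Npy ID was the member without overlap between these groups, as were 7.46% of all genes, at 16 to 23 reads with WIN and cocaine and 12 to 16 reads with WIN. Against control, rats given WIN with cocaine had none of the 8 called (0% of all genes), and the Npy ID alone had an unadjusted p under 0.05, where 7.91% of all genes did, with a log2 difference of -1.69 (SE 0.51, limma adjusted p = 0.617, and 0.00291 without control replicate 2). Penk was the member that did not overlap control, as in 19.6% of all genes, averaging 37.8 ± 1.77 FPKM in the WIN with cocaine group and 33.9 ± 1.52 FPKM in the control group (SD, n = 3 each), a log2 difference of 0.15 (95% interval -0.04 to 0.34, limma adjusted p = 0.635). Cck averaged 1147 ± 199 FPKM in the WIN with cocaine group and 988.9 ± 83.5 FPKM in the control group (SD, n = 3 each), a log2 difference of 0.20 (interval -0.04 to 0.45).

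**Figure D3:**
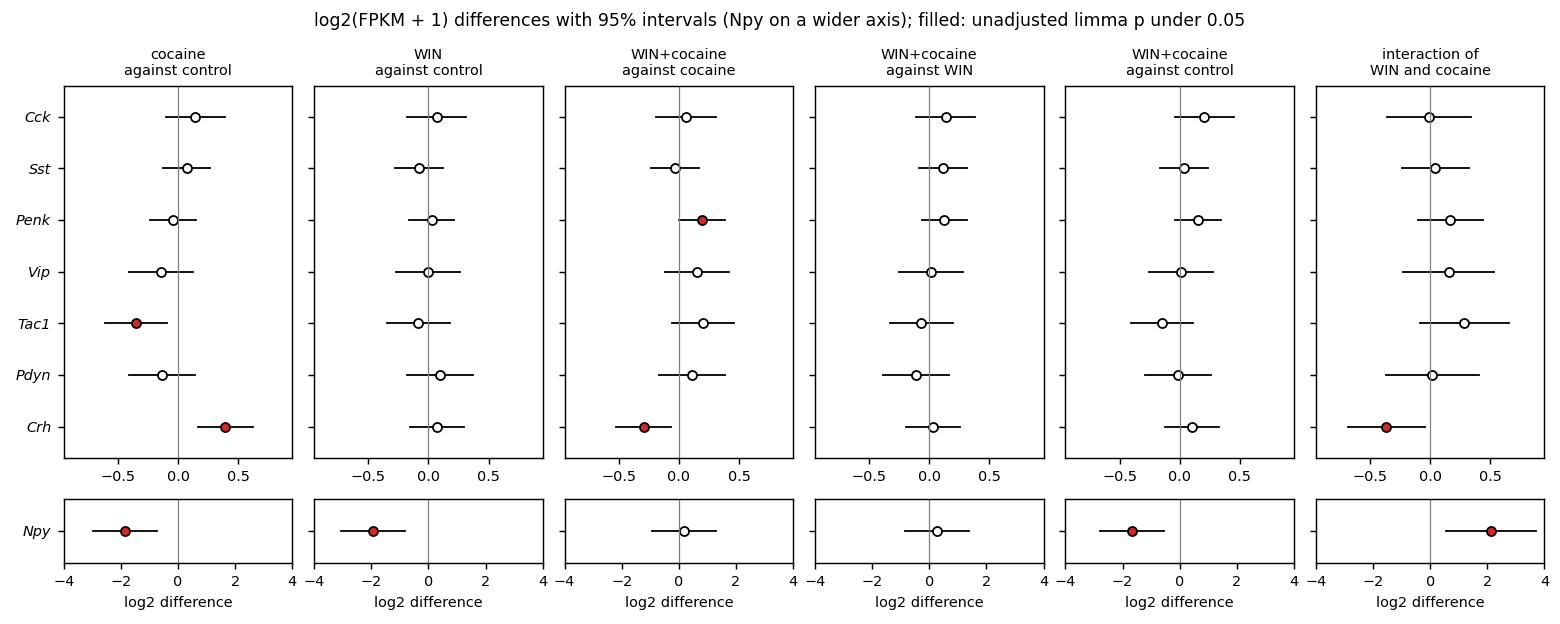
log2 differences of log2(FPKM + 1) with 95% intervals (lines) for the 8 genes in the 5 comparisons and the interaction, with filled points at an unadjusted limma p under 0.05 and the Npy ID on a wider axis. Crh stands at 0.39 for cocaine against control, at -0.29 for WIN with cocaine against cocaine and at 0.03 for WIN with cocaine against WIN.

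Whether the difference made by cocaine itself differed with and without WIN was tested as the interaction of both treatments in the same limma fit. None of the 8 genes was called (0% of all genes, smallest adjusted p 0.539), and 2 had an unadjusted p under 0.05, where 9.02% of all genes did. Crh had an interaction of -0.36 on the log2 scale (SE 0.15, 95% interval -0.69 to -0.04, limma adjusted p = 0.539), from a log2 difference between cocaine and no cocaine of 0.03 in rats given WIN and 0.39 in rats not given WIN. The Npy ID had an interaction of 2.13 (SE 0.72, limma adjusted p = 0.539, and 0.0106 without control replicate 2). For Tac1 the interaction was 0.28 (interval -0.08 to 0.65), and for the other 5 genes it lay between -0.01 (Cck) and 0.17 (Penk).

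All the differences of the Npy ID from control rest on control replicates 1 and 3. With control replicate 2 as the only control, a choice made because its value was seen to be near those of the treated rats, the log2 differences were -0.23 for cocaine, -0.31 for WIN and -0.05 for WIN with cocaine, and the interaction was 0.49. These are values of a single control library and are given with no test. Without control replicate 2 the log2 differences were -2.69 for cocaine, -2.77 for WIN and -2.51 for WIN with cocaine, and the interaction was 2.95. In each of these 4 fits the Npy ID was then the only gene of 15326 called. Leaving out the control that differs from the others lowers the spread (SE 0.21 for WIN, against 0.51 with all controls). The small p-values of these fits follow from that choice and are no separate support. Which of the control libraries shows the usual level of this ID in untreated cortex was not tested.

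The ratio of Pdyn to Crh, whose peptides dynorphin and corticotropin-releasing hormone are both tied to the stress response, gives the same libraries on a scale that does not depend on library size. It was 1.49, 1.22 and 1.87 in rats given WIN with cocaine, 1.04, 0.913 and 1.34 in cocaine-treated rats, 1.94, 1.77 and 1.40 in WIN-treated rats, and 1.77, 1.57 and 1.67 in control rats. The 3 cocaine values lay below all values of the WIN and control groups and overlapped those of WIN with cocaine. The ratio was chosen after the levels were seen and has no test of its own. Crh is its denominator and was already highest in the cocaine libraries, so this is not a result separate from that of Crh. Other ratios of members were also computed, likewise with no test. Penk to Tac1 was 2.73 to 3.27 in the libraries with cocaine, with or without WIN, and 2.20 to 2.69 in those without. Cck to Sst and Penk to Pdyn overlapped between the libraries with and without cocaine. How often ratios of all other genes separate these groups was not counted.

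Relations between the members across libraries did not pass the adjusted threshold. Over the 28 pairs of members and all 12 libraries, 0 passed an adjusted p of 0.05 and 4 had an unadjusted p under 0.05 (two-sided permutation tests with 100000 resamples, on log2(FPKM + 1)). Sst and Cck had Pearson's r = 0.69 and Spearman's rho = 0.70 (permutation p = 0.00575, adjusted p = 0.0966), and r = 0.61 without the 2 libraries farthest from the median of Sst. Vip and Pdyn had r = 0.72 and rho = 0.78 (permutation p = 0.0069, adjusted p = 0.0966), and r = 0.77 without the 2 farthest libraries. Tac1 and Crh had r = -0.70 and rho = -0.61 (permutation p = 0.0118, adjusted p = 0.110), but r was -0.27 once the group means were removed, so that relation lay largely between the groups. Penk and Tac1 had r = 0.60 and rho = 0.50 (permutation p = 0.0404, adjusted p = 0.283), and r = 0.52 without the 2 farthest libraries.

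Taken as deviations from the group means, Penk and Tac1 were the closest pair, with r = 0.89 (exact permutation test over the 1296 orders of libraries within groups, p = 0.0054, adjusted p = 0.151 over the 28 pairs). Leaving out each library in turn gave r from 0.82 to 0.92, and leaving out both WIN replicates 1 and 3, the libraries at the ends, gave 0.86. Sst and Cck had r = 0.74 (exact permutation p = 0.0502, adjusted p = 0.468) and Vip and Pdyn r = 0.70 (exact permutation p = 0.0216, adjusted p = 0.302) on the same deviations. In no pair did the adjusted p reach 0.05, and r was positive in 20 of 28 pairs.

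**Figure D4:**
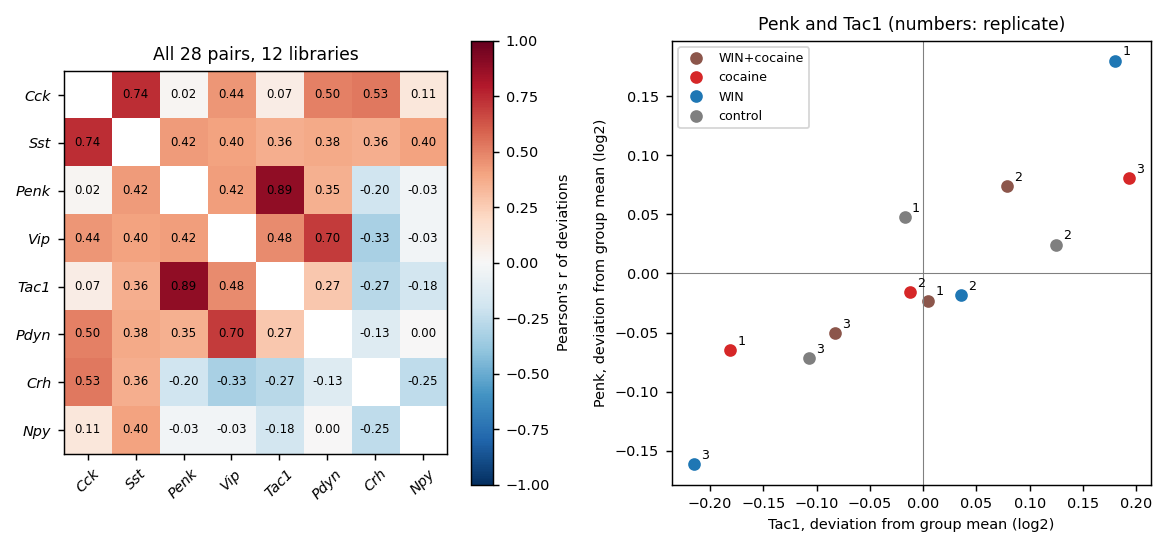
Pearson's r between the members' deviations from their group means over 12 libraries (left, colour scale from -1 to 1) and the deviations of Penk against those of Tac1 in each library (right, both on the log2 scale, coloured by group, numbered by replicate). Penk and Tac1, the closest of the 28 pairs, had r = 0.89 (exact permutation test, adjusted p = 0.151), with WIN replicate 3 lowest and WIN replicate 1 near the top for both.

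The nearest member by Pearson's r over the 12 libraries was for none of the 8 the nearest gene tested. For Pdyn, whose nearest member was Vip, 67 of the 15325 other genes tested had a higher r, and for Sst, whose nearest member was Cck, 83 did. Tac1 with Penk had 3384 genes nearer, Crh with Cck 3395, and the Npy ID with Tac1 (r = 0.29) 2394. Correlations at this number of libraries are common across the transcriptome, and these genes share libraries and depth.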

How the data were processed

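RNA libraries of rat prefrontal cortex were grouped by their titles, and all 12 columns were mapped (0 were not). Per the labels' protocols, a stranded RNA kit was used with Trizol-extracted RNA. The authors deposited FPKM values per gene. HISAT2, HTSeq and DESeq are named in the submitters' processing notes, without versions; the sources used here name no build, annotation or strand setting, and overlapping genes may share reads. Differences are given on the log2(FPKM + 1) scale, where those of weakly expressed genes come out smaller. Whole reads were recovered for all 24197 genes with a value (100% of them; 99.98% of 11614 genes above 200 reads gave a whole gene length within 0.03 bp). Differences were tested with limma 3.58.1 in R 4.3.3 over 15326 genes, with Benjamini-Hochberg adjustment, and the fit was tested on simulated data. Alternatives were pseudocount 0.1, no filter, rescaling, quantile normalization, library weights, the compared libraries alone, recovered reads, the replicate block and leaving out libraries. All 8 members are named, and the members and lists were chosen with earlier results of these data known. No pairing of the libraries by replicate number was seen, which does not show that there was none. Nucleus accumbens and ATAC data, other peptide genes and receptors were not analysed here.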

Additional observations from a re-analysis of the deposited data

How the results depend on the processing

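Of 1000 alternative values for the 48 differences of single genes, 940 kept their direction and side of the threshold, 9 newly passed it and 51 changed sign, in 17 differences that lay between -0.11 and 0.18 as reported. For cocaine against control, 2 members were called with library weights, beside 2083 genes in all. Leaving out 1 library gave 0 to 3 members, with 2772 genes in all where it gave 3. The compared libraries alone gave 0 members and 1378 genes in all. Leaving out 1 library gave 0 to 1 members for the interaction and for WIN, alone or with cocaine, against control. Where it gave 1, that member was the only gene called. Across the alternatives Crh under cocaine stayed between 0.32 and 0.48 on the log2 scale, with adjusted p from 0.0277 to 0.24, and Tac1 between -0.47 and -0.26, with adjusted p from 0.0410 to 0.277. Crh in WIN with cocaine against cocaine stayed between -0.37 and -0.22, and Penk between 0.16 and 0.23.

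With library weights the sign changed for Vip (0.064) and Tac1 (0.018) in WIN against control, Vip in WIN with cocaine against WIN (-0.067) and against control (-0.0023), and the interactions of Sst (-0.010) and Pdyn (-0.10). With quantile normalization it changed for Vip in WIN with cocaine against WIN (-0.0085) and against control (-0.0091), and with median ratio rescaling for the Pdyn interaction (-0.0058). With control replicate 2 as the only control, it changed for Sst in WIN against control (0.010), Vip (-0.0087) and Pdyn (0.0049) in WIN with cocaine against control, and the interactions of Sst (-0.044) and Pdyn (-0.0041). The cause was not tested.

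Leaving out 1 library turned these signs. In WIN against control the ranges were -0.065 to 0.11 for Penk, -0.12 to 0.011 for Sst, -0.17 to 0.024 for Tac1 and -0.055 to 0.067 for Vip. In WIN with cocaine against cocaine they were -0.077 to 0.16 for Cck, -0.048 to 0.29 for the Npy ID and -0.099 to 0.026 for Sst. In WIN with cocaine against WIN they were -0.013 to 0.083 for Crh, -0.20 to 0.014 for Pdyn, -0.17 to 0.025 for Tac1 and -0.089 to 0.094 for Vip. In WIN with cocaine against control they were -0.10 to 0.11 for Pdyn, -0.029 to 0.12 for Sst and -0.092 to 0.091 for Vip. For the interaction they were -0.14 to 0.089 for Cck, -0.070 to 0.14 for Pdyn and -0.045 to 0.10 for Sst.

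Same-numbered libraries were not seen to resemble each other, with correlations of their deviations from -0.28 to 0.20 and 4 of 12 libraries closest to their own number. With 3 libraries per group this does not show that they were unpaired. With the replicate number as a block, 0 members were called in each comparison, and 3 genes in all for cocaine against control. On recovered reads limma voom called 0 members in each comparison, and the planned quasi-likelihood count test was not run. The low counts of Crh and the Npy ID limit what 3 libraries per group can show.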
